A study of Saccharomyces cerevisiae with 18 samples.

Results

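The genes described here are 32 budding yeast genes that fold, glycosylate and import proteins at the endoplasmic reticulum (ER), including the 2 genes that switch on the unfolded protein response (UPR). They were chosen by gene name from the 7126 genes of the count table, and all 32 had a row and passed the expression filter, which left 6239 genes to test. Polyadenylated RNA came from 18 cultures, 3 replicates for each combination of 3 strains and 2 media, with 18816441 to 21851012 counts per library. All strains were haploid MATa cells of the BY4741 background with the alleles his3delta1, ura3delta0, leu2delta0 and lys2delta0, a GFP gene driven by the TEF promoter on chromosome VI, and a genomic *HCM1* copy behind the *GAL1* promoter, which galactose switched on in the starter cultures and dextrose switched off in the experiment. The groups differed in the *HCM1* promoter-driven, V5-tagged copy on a centromeric pRS316 plasmid, which encoded the wild type (WT) forkhead transcription factor Hcm1, Hcm1-3N, with alanines in an N-terminal phosphodegron that targets the protein for degradation, or Hcm1-8E, whose activation domain carries phosphomimetic substitutions where CDK would phosphorylate it. Control medium was synthetic medium with dextrose and without uracil, LiCl medium contained 150 mM LiCl in addition, and cultures were collected in logarithmic growth after 40 hours. Because all strains held a plasmid-borne *HCM1* over a silenced genomic copy, the WT group is not an unmodified yeast.

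The libraries were compared with their labels at the deleted genes, the mating type genes and *HCM1*. The deleted genes *LEU2* and *LYS2* had 0 counts in all 18 libraries. Of 5 MATa-specific genes, 4 lay at 98.2 CPM or more in every library (counts scaled by library size with TMM factors) and *ASG7* lay at 5.11 to 22.6 CPM. The 4 MATalpha-specific genes lay at 58.9 CPM or less, with *SAG1* the highest at 30.7 to 58.9 CPM and *MF(ALPHA)1* the most variable at 0.897 to 24.7 CPM. *MF(ALPHA)1* differed by group, at 18.3 to 24.7 CPM in *hcm1-3N* in LiCl and at most 7.58 CPM in the other groups. Its log2 difference of *hcm1-3N* from WT was 1.83 ± 0.41 in control medium (adjusted p = 0.0149, edgeR) and 2.11 ± 0.37 in LiCl (adjusted p = 0.0246, edgeR). *HCM1* counts sum plasmid and any genomic transcript, and they differed between groups. *HCM1* lay at 281 to 324 CPM in WT, 241 to 249.97 CPM in *hcm1-3N* and 220.3 to 252 CPM in *hcm1-8E* in control medium, and at 348 to 471, 217 to 314 and 135 to 163 CPM in LiCl. In LiCl its log2 difference from WT was -0.67 ± 0.14 in *hcm1-3N* (adjusted p = 0.0436, edgeR) and -1.45 ± 0.14 in *hcm1-8E* (adjusted p = 3.82e-04, edgeR). *HCM1* rose with LiCl in WT (log2 fold change 0.42 ± 0.14, adjusted p = 0.0375, edgeR) and fell by 0.70 ± 0.14 in *hcm1-8E* (adjusted p = 0.00252, edgeR), and its part in the values below was not tested. In bulk cultures, a change in the share of cells at one stage of the cell cycle and a change in RNA per cell cannot be told apart.

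Secretory proteins enter the ER through the Sec61 channel, are glycosylated on asparagine by the oligosaccharyltransferase and on serine or threonine by the protein O-mannosyltransferases, are bound by the Hsp70 chaperone Kar2, and receive disulfide bonds from protein disulfide isomerase and the oxidase Ero1. Unfolded protein in the ER activates the transmembrane kinase and nuclease Ire1, which splices *HAC1* mRNA. The spliced mRNA makes the transcription factor Hac1, which binds unfolded protein response elements (UPREs) upstream of chaperone and disulfide genes. Counts per gene do not tell spliced from unspliced *HAC1* mRNA, so the values of *HAC1* below describe its amount and not its splicing.

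The promoters of 4 members are shown, which carry UPRE letters and passed the edgeR test of LiCl against control averaged over strains, described below. The other members with UPRE letters, *LHS1*, *SIL1*, *PMT3* and *PMT5*, did not pass that test. Each run is the 300 bases of RefSeq's R64 assembly from 250 bases before to 50 bases after the annotated gene start, 5′ to 3′ on the gene's strand, with matches to CAGNGTG (the UPRE-1 core with 1 base open) or TACGTG (the UPRE-2 core) on either strand in capitals. *KAR2* is at chrX:381077-381376 on the plus strand, *EUG1* at chrIV:1478358-1478657 on the plus strand, *MPD1* at chrXV:853028-853327 on the minus strand and *ERO1* at chrXIII:13125-13424 on the minus strand.
KAR2: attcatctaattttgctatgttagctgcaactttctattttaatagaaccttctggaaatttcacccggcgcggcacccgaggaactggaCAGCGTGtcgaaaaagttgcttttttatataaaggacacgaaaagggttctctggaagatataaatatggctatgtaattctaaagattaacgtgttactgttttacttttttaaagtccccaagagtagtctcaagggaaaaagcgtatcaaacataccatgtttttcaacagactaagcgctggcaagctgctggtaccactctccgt
EUG1: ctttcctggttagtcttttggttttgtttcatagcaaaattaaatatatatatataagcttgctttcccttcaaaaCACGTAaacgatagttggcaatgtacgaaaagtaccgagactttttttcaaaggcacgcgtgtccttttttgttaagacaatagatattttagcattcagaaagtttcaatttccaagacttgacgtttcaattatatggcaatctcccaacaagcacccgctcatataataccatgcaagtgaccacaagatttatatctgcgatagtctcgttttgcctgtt
MPD1: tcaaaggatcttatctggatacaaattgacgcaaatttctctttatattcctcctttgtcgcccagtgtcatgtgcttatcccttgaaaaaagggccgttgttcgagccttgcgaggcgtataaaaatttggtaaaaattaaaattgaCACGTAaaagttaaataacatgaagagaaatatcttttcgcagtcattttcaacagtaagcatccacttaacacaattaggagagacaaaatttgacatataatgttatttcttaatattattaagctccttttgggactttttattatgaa
ERO1: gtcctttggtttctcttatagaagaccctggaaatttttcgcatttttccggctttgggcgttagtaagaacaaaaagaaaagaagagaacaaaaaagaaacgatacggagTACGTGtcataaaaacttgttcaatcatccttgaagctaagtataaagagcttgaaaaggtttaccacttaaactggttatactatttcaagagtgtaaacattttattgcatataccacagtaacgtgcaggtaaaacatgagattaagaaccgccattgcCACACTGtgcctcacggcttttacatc

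The *KAR2* match lies 160 to 154 bases before the start and the *ERO1* match to TACGTG 139 to 134 bases before it. *EUG1* has the TACGTG match on the opposite strand, -174 to -169 from its start, and *MPD1* has it at -102 to -97. The second *ERO1* match, at 24 to 30 bases after the start, lies inside the coding sequence. Exact CAGCGTG stood in the windows of *KAR2* and *LHS1*, 2 of 32 members (6.25%), against 1.17% of 6001 promoters, and CAGNGTG in 4 (12.5%, against 5.4%), the others being *ERO1* and *PMT3*. TACGTG stood in 5 of 32 (15.6%, against 7.75%), which were *SIL1*, *EUG1*, *MPD1*, *ERO1* and *PMT5*. The forkhead core TAAACAA stood in *ERV2* and *SEC61* (6.25%, against 12.6% of all promoters), and the heat shock element pair GAANNTTC in *KAR2*, *SEC61* and *HAC1* (9.38%, against 11.8%). All motifs were searched on both strands, and every CAGCGTG is also a CAGNGTG.

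Levels across genes were compared in the authors' TPM, an abundance unit that accounts for gene length and library size. The highest of the 32 was *PDI1*, which encodes protein disulfide isomerase, at a mean of 567 TPM over the 18 libraries, followed by *HAC1* at 474 TPM and *OST4*, a small oligosaccharyltransferase subunit, at 418 TPM. The place of *OST4* depends on division by its annotated length of 111 bases, and TPM of so short a gene are uncertain. In CPM, without that division, *OST4* lay at 45.1 to 76.2 and *OST1* at 260 to 405. The chaperone gene *KAR2* was thirteenth at 141 TPM. The lowest were *IRE1* at 13.2 TPM and *JEM1*, a J-domain partner of Kar2, at 9.25 TPM, which still had 315 to 680 counts per library.

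**Figure D1:**
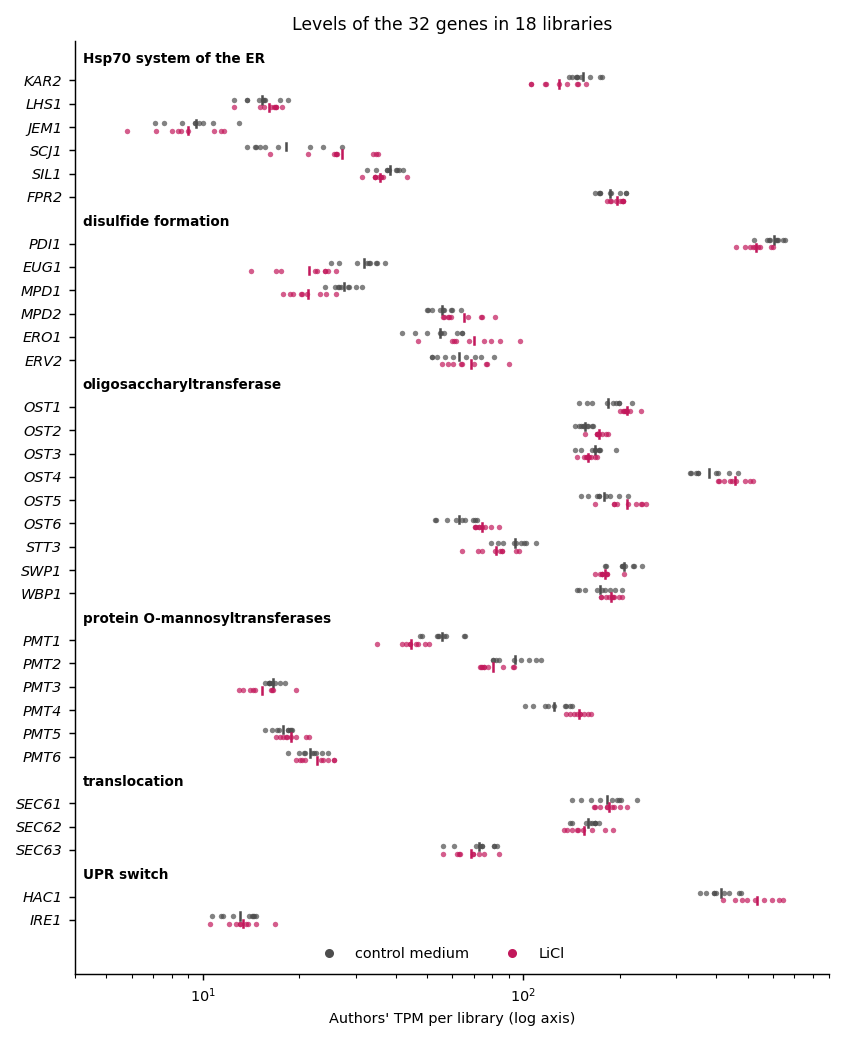
TPM of the 32 genes on a log axis, 1 point per library, grouped by role, with control medium in grey above and LiCl in magenta below, and the mean of each medium as a vertical bar. *PDI1*, *HAC1* and *OST4* lie highest, *IRE1* and *JEM1* lowest, and the LiCl mean of *EUG1* and of *PMT1* lies left of the control mean, with some overlap of single libraries in TPM.

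Several neighbours in this order did not separate. *PDI1* exceeded *HAC1* in 12 of 18 libraries, *HAC1* exceeded *OST4* in 14, *OST1* exceeded *OST5* in 10 and *SEC62* exceeded *KAR2* in 10. In TPM, though not in CPM, *OST4* exceeded *OST1* in all 18. *IRE1* exceeded *JEM1* in all 18. Within the complex that transfers N-glycans, levels differed by gene from *OST4* down to the catalytic subunit *STT3* at 88.3 TPM and *OST6*, 1 of the 2 alternative redox subunits, at 68.8 TPM, while the other alternative, *OST3*, stood at 163 TPM. The members that varied most between libraries were *EUG1*, with a highest TPM 2.62 times its lowest, *SCJ1* at 2.57 times and *ERO1* at 2.32 times. *FPR2*, an ER peptidyl-prolyl isomerase gene, varied least, by 1.25 times.

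The first comparison asked how growth in LiCl changed these genes, averaged over the 3 strains. A gene was called when edgeR's quasi-likelihood test gave a Benjamini-Hochberg adjusted p-value under 0.05 over all genes tested. Of the 32 genes, 10 rose and 8 fell, so 56.2% were called, close to the 52.5% of all genes tested (28.5% higher and 24% lower). The median log2 fold change was 0.02 for the 32 genes and 0.02 for all genes. The disulfide, Hsp70, oligosaccharyltransferase and O-mannosyltransferase groups each had members called in both directions, and the largest called change was 1.54-fold. Scaled by library totals without TMM factors, 12 members were called higher and 6 lower, among 2005 higher and 1220 lower of all 6239 genes.

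Among the disulfide genes, 3 of 6 fell (*EUG1*, *MPD1* and *PDI1*), 2 rose (*ERO1* and *MPD2*), and *ERV2*, an ER sulfhydryl oxidase gene, had a log2 fold change of 0.10 ± 0.07 (standard error). *EUG1*, a nonessential paralog of *PDI1*, showed the largest change of the 32. Its level was 65.3, 63.0 and 66.3 CPM in WT replicates 1 to 3 in control medium and 45.3, 44.3 and 47.1 CPM in LiCl. In *hcm1-3N* it was 59.2, 53.1 and 52.4 CPM in control medium and 32.1, 28.3 and 36.8 CPM in LiCl. In *hcm1-8E* it was 70.3, 73.8 and 64.9 CPM in control medium and 49.4, 45.2 and 44.1 CPM in LiCl. In CPM every LiCl library lay below every control library, and the 3 *hcm1-3N* libraries in LiCl lay below the other 15. *EUG1* fell by 0.62 ± 0.06 on the log2 scale, or 1.54-fold (adjusted p = 1.13e-06, edgeR), and the call held in all 18 fits that left out 1 library.

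*MPD1*, a disulfide isomerase family gene, fell by 0.41 ± 0.08 on the log2 scale (adjusted p = 7.08e-04, edgeR). It measured 27.9, 31.5 and 35.4 CPM in WT in control medium against 23.5, 28.4 and 29.1 CPM in LiCl, and 34.3, 32.3 and 34.2 against 23.6, 25.2 and 33.7 CPM in *hcm1-3N*. In *hcm1-8E* it measured 32.01, 38.5 and 37.0 CPM against 21.7, 20.1 and 23.9 CPM, and only in that strain did the media not overlap. Between media, 44.5% of all genes did not overlap in *hcm1-8E*. *MPD1* was lower in LiCl in all 9 pairs of libraries with the same strain and replicate number. *PDI1* fell by 0.21 ± 0.05 (adjusted p = 0.00259, edgeR), also in 9 of 9 pairs, and *MPD2* had a log2 fold change of 0.19 ± 0.06 (adjusted p = 0.0185, edgeR), a call lost without WT control replicate 1, *hcm1-3N* LiCl replicate 1 or *hcm1-8E* LiCl replicate 3 (adjusted p up to 0.0616, edgeR).

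*ERO1*, the oxidase that recharges protein disulfide isomerase, gave the least stable of the larger changes. It measured 132, 103 and 124 CPM against 183, 146 and 160.1 CPM in WT, and 117, 90.9 and 104 against 163, 131 and 139 CPM in *hcm1-3N*, control before LiCl. In *hcm1-8E* it measured 121, 134 and 140.2 CPM in control medium and 200.1, 93.9 and 123 CPM in LiCl, so that 1 LiCl library lay above and 1 below all control libraries of that strain. The averaged log2 fold change was 0.33 ± 0.12 (adjusted p = 0.0334, edgeR). It dropped to 0.19 (adjusted p = 0.0713, edgeR) without *hcm1-8E* LiCl replicate 1, and the call was also lost in 8 other fits, without WT control replicate 2, WT LiCl replicate 1 or 3, *hcm1-3N* control replicate 2 or 3, *hcm1-3N* LiCl replicate 1, or *hcm1-8E* control replicate 1 or 2 (adjusted p up to 0.0862, edgeR).

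**Figure D2:**
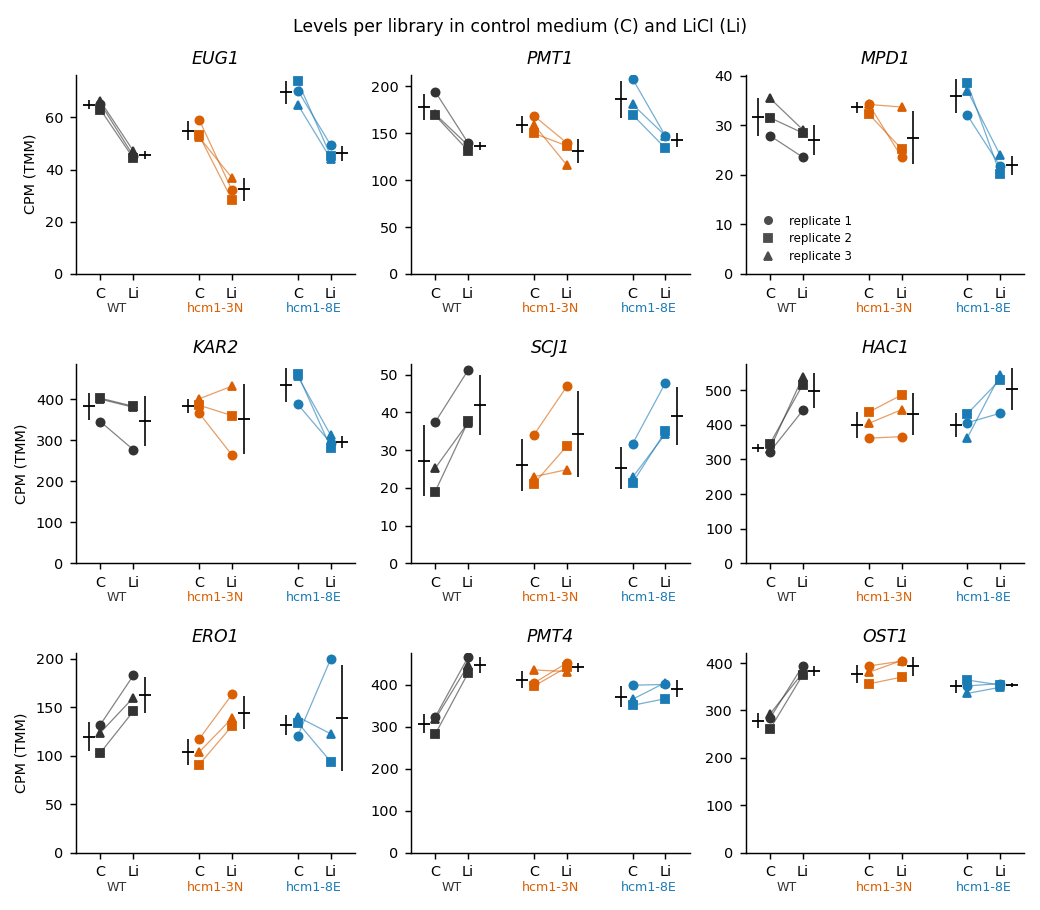
CPM of 9 genes in each library, with control medium (C) and LiCl (Li) side by side for each strain, lines joining libraries of the same replicate number, and a bar for the mean ± SD (n = 3). *EUG1* and *PMT1* drop along all 9 lines, *KAR2* separates by medium in *hcm1-8E* only, *ERO1* splits in *hcm1-8E*, and *PMT4* and *OST1* start low in WT control medium.

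In the group of the ER Hsp70 system, 1 of 6 genes rose (*SCJ1*) and 1 fell (*KAR2*). The 6 include the peptidyl-prolyl isomerase gene *FPR2*, placed here for counting only. *SCJ1*, a J-domain protein of the ER lumen, measured 37.4, 19.01 and 25.2 CPM in WT control medium and 51.2, 37.6 and 37.3 CPM in LiCl. It measured 34.0, 21.1 and 23.0 against 46.9, 31.1 and 24.8 CPM in *hcm1-3N*, and 31.7, 21.4 and 22.8 against 47.9, 34.99 and 34.3 CPM in *hcm1-8E*. Replicate 1 was the highest of its group in all 6 groups, and LiCl exceeded control in all 9 pairs. *SCJ1* rose by 0.55 ± 0.17 on the log2 scale, or 1.47-fold (adjusted p = 0.012, edgeR). The call held in all 18 fits without 1 library, and the rise was 0.56 without the replicate 1 libraries.

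*KAR2*, the Hsp70 chaperone itself, moved the other way. It measured 346, 403 and 401 CPM in WT control medium against 277, 383 and 381 CPM in LiCl, 367, 386 and 401 against 264, 361 and 433 CPM in *hcm1-3N*, and 388, 461 and 456 against 293, 282 and 312 CPM in *hcm1-8E*. The media overlapped in WT and *hcm1-3N* and were apart in *hcm1-8E*. Averaged over strains *KAR2* fell by 0.27 ± 0.09, or 1.21-fold (adjusted p = 0.0198, edgeR). The log2 fold changes of the nucleotide exchange factor genes *LHS1* and *SIL1* were 0.05 ± 0.06 and -0.13 ± 0.06, those of *JEM1* and *FPR2* were -0.10 ± 0.11 and 0.05 ± 0.04, and none of these 4 passed the test.

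Of the 9 oligosaccharyltransferase genes, 5 rose (*OST1*, *OST2*, *OST4*, *OST5* and *OST6*) and 2 fell (*STT3* and *SWP1*). The rises were small, from 0.12 ± 0.05 for *OST2* to 0.24 ± 0.06 for *OST4*, which was higher in LiCl in 9 of 9 pairs. The catalytic subunit *STT3* fell by 0.22 ± 0.06 (adjusted p = 0.0114, edgeR), and *SWP1*, a subunit of the core complex, fell by 0.22 ± 0.06 (adjusted p = 0.00519, edgeR). *OST3* had a log2 fold change of -0.09 ± 0.05 and *WBP1* of 0.09 ± 0.05. The *OST2* call was lost in 15 of 18 fits without 1 library (all but those without WT control replicate 3, *hcm1-3N* control replicate 3 or *hcm1-3N* LiCl replicate 2, adjusted p up to 0.146, edgeR) and the *OST5* call in 6, without WT control replicate 1 or 2, WT LiCl replicate 1, *hcm1-3N* control replicate 2, *hcm1-8E* control replicate 2 or *hcm1-8E* LiCl replicate 1 (adjusted p up to 0.072, edgeR).

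Among the protein O-mannosyltransferases, *PMT1* and *PMT2*, whose products form a heteromeric complex, fell and *PMT4*, whose product acts as a homomer on membrane proteins, rose. *PMT1* measured 194, 169 and 170.4 CPM in WT control medium and 139.7, 132 and 137 CPM in LiCl. In *hcm1-3N* it measured 169, 149.8 and 159 against 139.6, 137 and 116 CPM, and in *hcm1-8E* 208, 169.8 and 181 against 147, 134 and 147 CPM. In CPM all 9 LiCl libraries lay below all 9 control libraries, whereas in TPM 2 LiCl libraries of *PMT1* and 1 of *EUG1* exceeded the lowest control library. *PMT1* and *EUG1* were the 2 of 32 members (6.25%) without overlap in CPM, against 9.52% of all genes tested. *PMT1* fell by 0.35 ± 0.06, or 1.28-fold (adjusted p = 1.53e-04, edgeR).

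*PMT2* measured 287, 223 and 238 against 253, 214 and 222 CPM in WT, 315, 244 and 251 against 257, 218 and 226 CPM in *hcm1-3N*, and 333, 286 and 274 against 259.6, 203 and 203 CPM in *hcm1-8E*. Replicate 1 was the highest in each of the 6 groups, so the media overlapped across numbers, while LiCl was the lower in 9 of 9 pairs. *PMT2* fell by 0.25 ± 0.08 (adjusted p = 0.0155, edgeR). *PMT4* rose by 0.24 ± 0.04, or 1.18-fold (adjusted p = 5.11e-04, edgeR). *PMT3*, *PMT5* and *PMT6*, members of the same enzyme family, had log2 fold changes of -0.14 ± 0.06, 0.06 ± 0.05 and 0.04 ± 0.08, none past the test. *PMT3* passed it with a term for the replicate number (adjusted p = 0.0157, edgeR), which called 19 members and 65.7% of all genes, and under DESeq2 (adjusted p = 0.0341).

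The translocation genes did not pass the test on average. *SEC61*, the channel, had a log2 fold change of 0.00 ± 0.05, and *SEC62* and *SEC63*, its partners in post-translational import, of -0.07 ± 0.06 and -0.11 ± 0.06. Of the UPR switch genes, *HAC1* rose and *IRE1* did not pass the test (0.01 ± 0.09). *HAC1* measured 322, 345 and 330.0 CPM in WT control medium against 442, 517 and 539 CPM in LiCl, 362, 437 and 404 against 366, 486 and 444 CPM in *hcm1-3N*, and 406, 432 and 362 against 434, 531 and 545 CPM in *hcm1-8E*. LiCl was higher in 9 of 9 pairs, and the media overlapped in *hcm1-3N* only. Between media, 45.3% of all genes did not overlap in WT and 44.5% in *hcm1-8E*. *HAC1* rose by 0.34 ± 0.07, or 1.27-fold (adjusted p = 0.00107, edgeR). *IRE1* lay between 43.6 and 68.4 CPM over the 18 libraries, with the media overlapping in every strain.

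Over the 9 pairs, 3 members were higher in LiCl every time (*SCJ1*, *OST4* and *HAC1*), against 17.6% of all genes, and 5 were lower every time (*PDI1*, *EUG1*, *MPD1*, *PMT1* and *PMT2*), against 17.5%.

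LiCl was next compared with control medium within each strain. In WT, 10 members rose and 3 fell (40.6%), against 30.4% of all genes, of which 16.5% rose and 13.9% fell. In *hcm1-3N*, 2 members fell and none rose (6.25%, against 10.3% of all genes, 5.16% higher and 5.18% lower). In *hcm1-8E*, 6 members fell and none rose (18.8%, against 29.5% of all genes, 17.1% higher and 12.5% lower). When the fit included a term for the replicate number (a replicate block), the calls were 13 higher and 3 lower in WT (against 49% of all genes), 4 higher and 7 lower in *hcm1-3N* (38.1%) and 4 higher and 8 lower in *hcm1-8E* (48.1%), so the counts of the mutants depended on this term. They also depended on scaling, since with library totals alone, which shifted the median of all genes in *hcm1-8E* by 0.102, 1 member was higher and 2 lower in *hcm1-3N* and 4 were higher and 4 lower in *hcm1-8E*. Of all 6239 genes, 490 were then higher and 235 lower in *hcm1-3N*, and 1304 higher and 521 lower in *hcm1-8E*. The 4 members that were then higher in *hcm1-8E* were *OST4*, *OST6*, *MPD2* and *HAC1*.

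*EUG1* fell in each strain, by 0.51 ± 0.10 in WT (adjusted p = 0.00131, edgeR), 0.76 ± 0.10 in *hcm1-3N* (adjusted p = 7.84e-04) and 0.59 ± 0.10 in *hcm1-8E* (adjusted p = 6.00e-04), and each call held without any 1 library. *PMT1* fell by 0.39 ± 0.10 in WT and 0.38 ± 0.10 in *hcm1-8E*. In *hcm1-3N* its log2 fold change was -0.28 ± 0.10, with an adjusted p of 0.0701 without and 0.0122 with the block (edgeR). The other call in *hcm1-3N* was *PDI1*, which measured 1222, 1318 and 1351 CPM in control medium and 934, 1052 and 1079 CPM in LiCl. These did not overlap, as in 31.3% of all genes, and *PDI1* fell by 0.34 ± 0.09 (adjusted p = 0.0225, edgeR). That call was lost without *hcm1-3N* control replicate 2 or 3 or LiCl replicate 1 or 2 (adjusted p up to 0.0908, edgeR). Without *hcm1-3N* LiCl replicate 3, 6 members were called in this strain in place of 2, and without each of the 4 libraries just named only 1 was.

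The 10 genes that rose in WT were *OST1*, *OST2*, *OST4*, *OST5*, *OST6* and *WBP1* of the oligosaccharyltransferase, *PMT4*, *SEC61*, *FPR2* and *HAC1*. *PMT4* measured 323, 282 and 318 CPM in control medium and 466, 428 and 446 CPM in LiCl, and rose by 0.54 ± 0.08 on the log2 scale, or 1.45-fold (adjusted p = 2.37e-04, edgeR). *OST1*, a subunit of the oligosaccharyltransferase core, went from 283, 260.1 and 292 CPM to 394, 375 and 379.6 CPM, a rise of 0.46 ± 0.07, or 1.38-fold (adjusted p = 3.29e-04, edgeR). In both genes the media stood well apart in WT, where 45.3% of all genes did not overlap between media. In the mutants the same genes gave 0.10 ± 0.08 and 0.07 ± 0.08 (*PMT4* in *hcm1-3N* and *hcm1-8E*) and 0.06 ± 0.07 and 0.01 ± 0.07 (*OST1*), none past the test. *HAC1* rose by 0.59 ± 0.12 in WT (1.502-fold, adjusted p = 0.0028, edgeR), against 0.11 ± 0.12 in *hcm1-3N* and 0.33 ± 0.12 in *hcm1-8E*, where the adjusted p was 0.0544 without and 0.00863 with the block (edgeR). The WT count fell from 13 to 6 without WT control replicate 2 and to 8 without WT control replicate 1 or WT LiCl replicate 1. *PMT4*, *OST1*, *OST6*, *HAC1*, *EUG1* and *PMT1* kept their WT calls without any 1 library, whereas *STT3*, *SEC61*, *OST2* and *FPR2* each kept theirs in 1 of 6 such fits and *OST4* and *OST5* in 2 (adjusted p up to 0.235, edgeR).

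In *hcm1-8E* the genes that fell were *MPD1*, *EUG1*, *KAR2*, *PMT2*, *PMT1* and *SWP1*. *MPD1* fell by 0.71 ± 0.14, or 1.64-fold (adjusted p = 0.00198, edgeR), the largest change of a called member in this strain. *KAR2* fell by 0.56 ± 0.16, or 1.47-fold (adjusted p = 0.0166, edgeR), a call lost without *hcm1-8E* control replicate 2 or 3 or LiCl replicate 2 (adjusted p up to 0.0656, edgeR). In WT and *hcm1-3N* its log2 fold changes were -0.14 ± 0.16 and -0.13 ± 0.16. *PMT2* fell by 0.42 ± 0.14 (adjusted p = 0.0313, edgeR), lost without control replicate 1 or 2 or LiCl replicate 2 or 3 (adjusted p up to 0.111, edgeR), and *SWP1* by 0.35 ± 0.10 (adjusted p = 0.0166, edgeR), lost without control replicate 1.

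**Figure D3:**
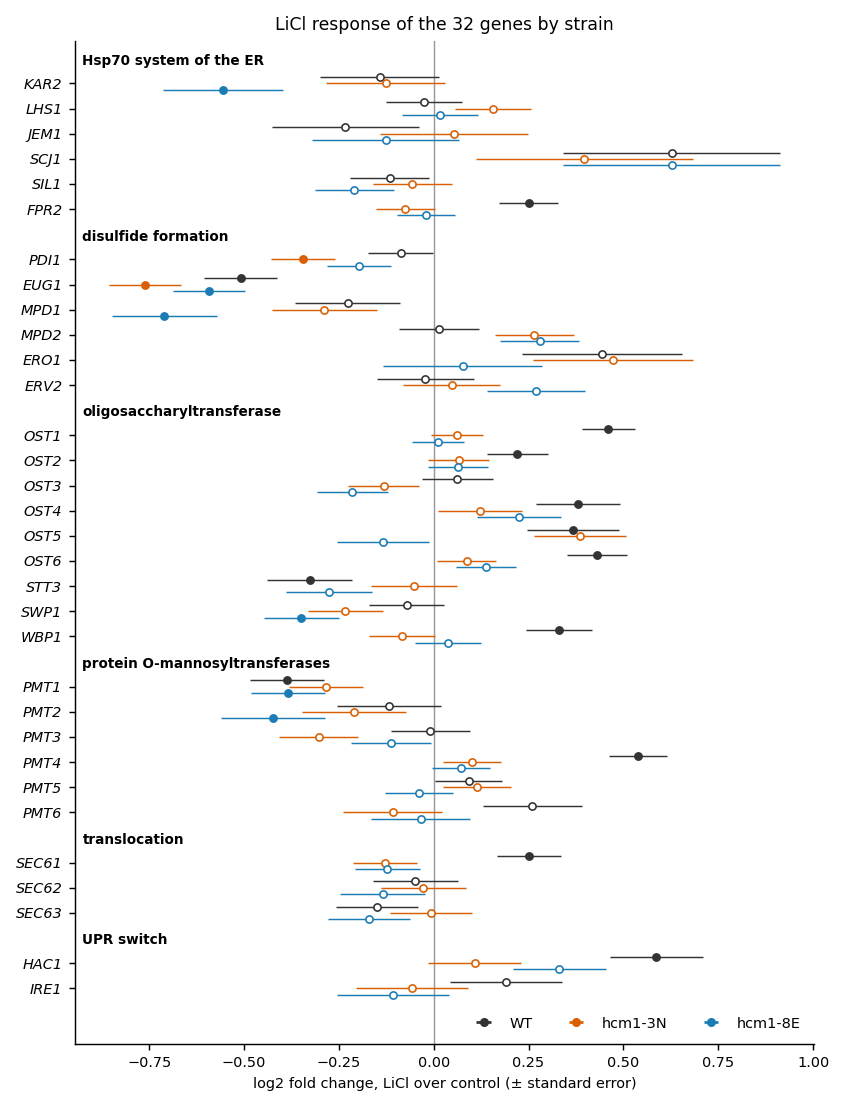
Log2 fold change of LiCl over control for the 32 genes in WT (dark), *hcm1-3N* (orange) and *hcm1-8E* (blue), with horizontal bars for ± 1 standard error and filled circles where the edgeR adjusted p was under 0.05. *EUG1* is left of 0 and filled in all strains, and the filled points right of 0, among them *OST1*, *PMT4* and *HAC1*, belong to WT with TMM scaling (with library totals, *HAC1*, *OST4*, *OST6* and *MPD2* were also called higher in *hcm1-8E* and *OST5* in *hcm1-3N*).

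The difference between strains in the LiCl response was tested itself, as an interaction term. No member passed edgeR's test for *hcm1-3N* against WT or for *hcm1-8E* against WT, and neither did any of the 6239 genes, while 7 and 8 members had an unadjusted p under 0.05. For *OST1* the response differed from that of WT by -0.40 ± 0.10 in *hcm1-3N* and -0.45 ± 0.10 in *hcm1-8E* (adjusted p = 0.174 and 0.278, edgeR), and for *PMT4* by -0.44 ± 0.11 and -0.47 ± 0.11 (adjusted p = 0.177 and 0.3, edgeR). With the replicate block the adjusted p-values were 0.0671 and 0.073 for *OST1* and 0.0572 and 0.062 for *PMT4* (edgeR), so no member was called there either, as against 0.641% and 0.337% of all genes. DESeq2's Wald test called 3 members for *hcm1-3N* (*OST1*, *PMT4* and *OST6*, adjusted p = 0.00216, 0.00292 and 0.0353) and 2 for *hcm1-8E* (*OST1* and *PMT4*, adjusted p = 5.10e-04 and 0.00253). For *hcm1-3N* it gave an adjusted p to 3705 genes, 30 of them members, and called 130 genes. For *hcm1-8E* it gave an adjusted p to 3033 genes, 29 of them members, and called 85 genes. For *EUG1* the interaction was -0.25 ± 0.13 in *hcm1-3N* and -0.08 ± 0.13 in *hcm1-8E*, and for *KAR2* in *hcm1-8E* it was -0.41 ± 0.22, with an interval of 2 standard errors from -0.86 to 0.03.

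The strains were then compared with each other in control medium. In *hcm1-3N*, 7 members were higher than in WT and none lower (21.9%), against 7.68% of all genes (4.23% higher and 3.45% lower). They were *SEC61*, *OST1*, *PMT4*, *WBP1*, *OST4*, *OST6* and *FPR2*, of which 4 are oligosaccharyltransferase genes. *SEC61* measured 284, 250.3 and 283 CPM in WT and 411, 368 and 389 CPM in *hcm1-3N*, and was higher there by 0.51 ± 0.09, or 1.43-fold (adjusted p = 0.00347, edgeR). *OST1* was 394, 356 and 380.3 CPM in *hcm1-3N*, higher by 0.44 ± 0.07 (adjusted p = 0.00287, edgeR), and *PMT4* was 404, 397 and 435 CPM, higher by 0.42 ± 0.08 (adjusted p = 0.00578, edgeR). *WBP1*, another subunit of the oligosaccharyltransferase core, measured 234, 233 and 260.1 CPM in WT and 331, 309 and 334 CPM in *hcm1-3N* (0.42 ± 0.09, adjusted p = 0.0103, edgeR). None of these 4 genes overlapped between the strains. They were among 17 members without overlap in this comparison (11 higher and 6 lower in *hcm1-3N*), and 35.4% of all genes did not overlap either.

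*OST6* (0.38 ± 0.08), *OST4* (0.40 ± 0.11) and *FPR2* (0.33 ± 0.08) made up the rest of the 7 calls. The *OST4* and *FPR2* calls were lost in all 6 fits without 1 library (adjusted p up to 0.159, edgeR), and those of *WBP1* and *OST6* without WT control replicate 2 or *hcm1-3N* control replicate 3, where the count of 7 fell to 3. With the block 12 members were higher and 2 lower, *JEM1* and *LHS1* (43.8%, against 22.5% of all genes). The 5 added on the higher side were *PDI1*, *HAC1*, *PMT6*, *SWP1* and *OST3*.

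In *hcm1-8E* no member passed edgeR's test against WT, where 0.0641% of all genes did, and 6 had an unadjusted p under 0.05. The 7 genes above gave log2 differences of 0.34 ± 0.08 (*SEC61*), 0.33 ± 0.07 (*OST1*), 0.27 ± 0.08 (*PMT4*), 0.26 ± 0.09 (*WBP1*), 0.12 ± 0.11 (*OST4*), 0.32 ± 0.08 (*OST6*) and 0.14 ± 0.08 (*FPR2*). The block called *OST1* (adjusted p = 0.0414, edgeR) and *SEC61* (adjusted p = 0.0497, edgeR) among 1.59% of all genes. DESeq2 called *OST1*, *OST6*, *SEC61* and *PMT4* (adjusted p = 2.02e-04, 0.00253, 0.00879 and 0.0168), among 159 calls in 5854 genes. The mutants were also compared with each other in control medium, where no member passed edgeR's test (0.0641% of all genes did, and 6 members had an unadjusted p under 0.05). The block called 3, *ERV2* higher in *hcm1-3N* (0.49, adjusted p = 0.0298, edgeR) and *EUG1* (-0.35, adjusted p = 0.048) and *SEC63* (-0.33, adjusted p = 0.0491) lower, among 3.73% of all genes. DESeq2 called *ERV2* and *EUG1*, among 124 calls in 6526 genes. *ERV2* overlaps *IRC16* on the opposite strand by 203 bases, and whether the counting used strand is not given in the sources used here.

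**Figure D4:**
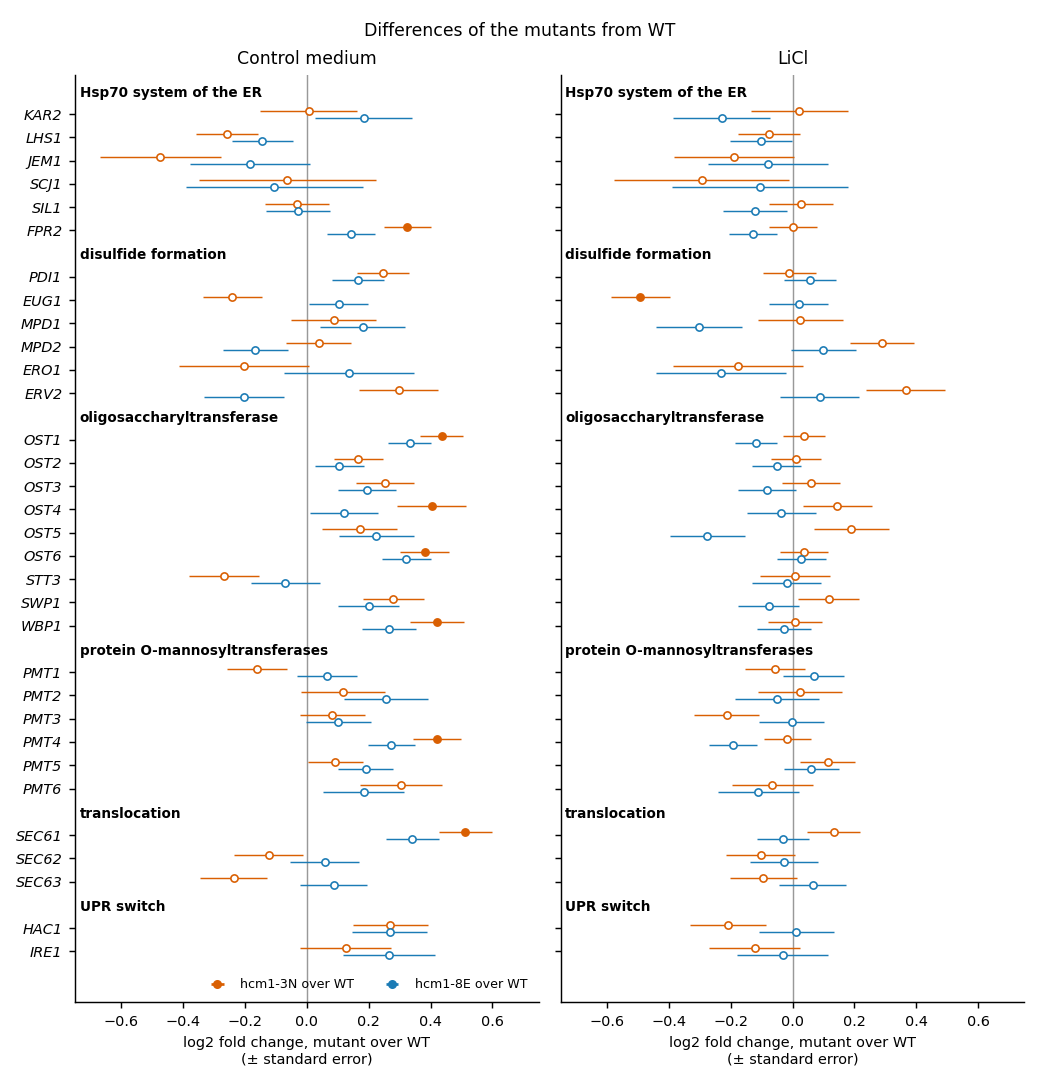
Log2 fold change of *hcm1-3N* (orange) and *hcm1-8E* (blue) over WT for the 32 genes in control medium (left) and LiCl (right), with bars for ± 1 standard error and filled circles where the edgeR adjusted p was under 0.05. The 7 filled points in control medium lie right of 0, and the only filled point in LiCl is *EUG1* in *hcm1-3N*, left of 0.

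The LiCl response of WT and the differences of both mutants from WT in control medium share the 3 WT control libraries. For 7 members these libraries lay below the other 15 (21.9%, against 3.14% of all genes), and no member had them above (2.64% of all genes). The 7 were *OST1*, *OST6*, *WBP1*, *PMT4*, *SEC61*, *FPR2* and *HAC1*. *OST1* was at most 292 CPM in WT control medium and 336 to 405 CPM in the other 15 libraries, *PMT4* at most 323 against 351 to 466 CPM, and *SEC61* at most 284 against 305 to 411 CPM. *OST6* was at most 70.1 against 79.0 to 98.7 CPM and *HAC1* at most 345 against 362 to 545 CPM. This count was made after the values were seen. The corresponding counts for the other groups were 1 for *hcm1-3N* in LiCl, *EUG1* below the rest (0.769% of all genes), 2 for *hcm1-8E* in control medium, *ERV2* and *MPD2* below the rest (1.2%), and 0 elsewhere.

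In LiCl *EUG1* was the only member called between strains, lower in *hcm1-3N* than in WT (log2 difference -0.49 ± 0.10, 1.41-fold, adjusted p = 0.0293, edgeR, with 0.721% of all genes called), and lower than in *hcm1-8E* (log2 difference -0.51 ± 0.10, adjusted p = 0.00792, edgeR, with 3.06% of all genes called, 1.11% higher and 1.96% lower). The *hcm1-3N* libraries did not overlap those of either strain. Against WT 3 members and 11.2% of all genes did not overlap, and against *hcm1-8E* 5 members and 13.1%. The call against WT held in 1 of 6 fits without 1 library, that without *hcm1-3N* LiCl replicate 3 (adjusted p up to 0.142 in the others, edgeR), and the call against *hcm1-8E* in all 6. The block, and the fit without *hcm1-8E* LiCl replicate 1, added *OST5*, which exceeded its level in *hcm1-8E* by 0.47 ± 0.12 (adjusted p = 0.054 without and 0.0204 with the block, edgeR, where 8.49% of all genes were called). Between *hcm1-8E* and WT in LiCl no member passed (0.0321% of all genes), 3 had an unadjusted p under 0.05, DESeq2 called none, and the block called none (0.305% of all genes). Against WT in LiCl the block left *EUG1* the only member called in *hcm1-3N* (3.05% of all genes).

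The position of replicate 1 within its group was counted for each member. *LHS1*, *SCJ1* and *PMT2* were highest in replicate 1 in all 6 groups (3 members, or 9.38%, against 16.2% of all genes), and *PMT3* and *PMT6* were lowest there in all 6 (2 members, or 6.25%, against 17.1%). In at least 5 of the 6 groups, 11 members were highest in replicate 1 (34.4%, against 26% of all genes), among them *JEM1*, *ERO1*, *STT3*, *PMT1* and *IRE1*, and 5 were lowest (15.6%, also against 26%), the others being *KAR2*, *PDI1* and *HAC1*. What sets replicate 1 apart was not tested.

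**Figure D5:**
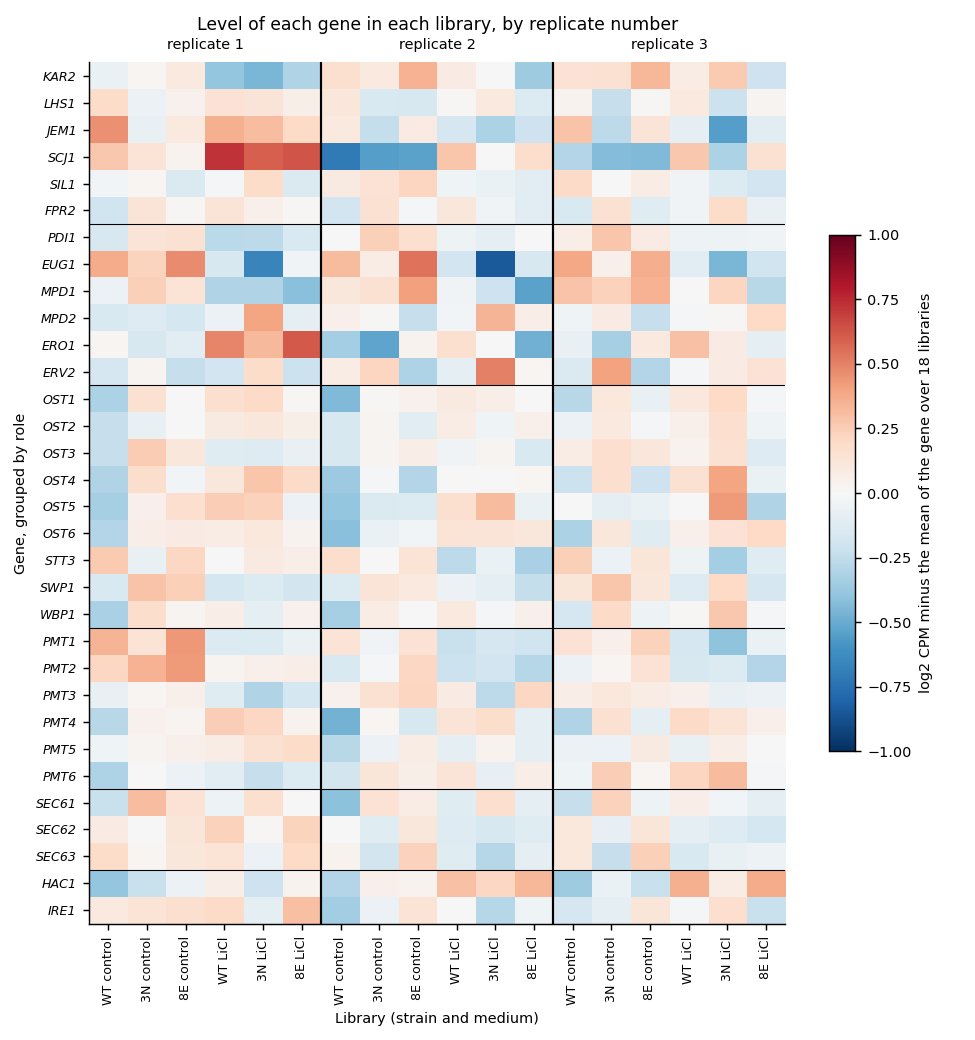
Log2 CPM of each gene in each library minus that gene's mean over the 18 libraries, red above and blue below, with libraries ordered by replicate number and then by medium and strain. *SCJ1* is red across most of replicate 1 and blue in the control libraries of replicates 2 and 3, *EUG1* is blue in LiCl in every replicate, and *OST1*, *OST6* and *PMT4* are blue in the 3 WT control libraries.

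Other genes of the secretory pathway were counted from lists of 75 genes, all tested. Averaged over strains, 19 rose (25.3%, against 28.5% of all genes), 30 fell (40.0%, against 24%) and 26 did not pass the test. The lists were not tested as sets. The ER-associated degradation genes, which export misfolded proteins to the proteasome, held 10 genes that fell and 1 that rose, *SSM4*, of 15 (66.7% and 6.67%), with a median log2 fold change of -0.36. *UBX2*, a recruiter of the Cdc48 ATPase, fell by 0.76 ± 0.09, *HRD1*, a ubiquitin ligase of this pathway, by 0.66 ± 0.13 and *HRD3*, its partner, by 0.48 ± 0.05. Of the glycan trimming genes and other folding factors, 7 of 8 fell (87.5%) and none rose, among them *EPS1*, a disulfide isomerase family gene (-0.39 ± 0.08), *CPR5*, a cyclophilin (-0.31 ± 0.05), and *ROT1*, an ER folding factor (-0.27 ± 0.05).

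The lipid-linked oligosaccharide genes build the glycan that the oligosaccharyltransferase transfers. Of 17, 9 rose and none fell in WT (52.9%, against 16.5% of all genes higher). None passed the test in *hcm1-3N* (10.3% of all genes did), and 1 rose and 1 fell in *hcm1-8E* (11.8% called, against 29.5% of all genes). With the replicate block the counts were 11 higher and 1 lower in WT, 1 higher and 3 lower in *hcm1-3N* and 4 higher and 1 lower in *hcm1-8E*. The block called 49%, 38.1% and 48.1% of all genes in these strains. In control medium 8 of the 17 were higher in *hcm1-3N* than in WT and none lower (47.1%, against 4.23% of all genes higher), a comparison that shares the 3 WT control libraries with the LiCl response of WT. On average 7 rose (41.2%) and 2 fell (11.8%), with the mannosyltransferase *ALG3* at 0.33 ± 0.06 and *ALG2* at -0.28 ± 0.07. Of 14 translocon and signal recognition particle genes, 6 rose (42.9%) and 2 fell (14.3%), the largest rises being *SRP21* (0.42 ± 0.09) and *SRP72* (0.39 ± 0.11). Of 15 genes for COPII coats and cargo receptors, which carry proteins out of the ER, 2 rose (13.3%) and 7 fell (46.7%), led by *SEC31* (-0.37 ± 0.06). Of 4 signal peptidase genes, 2 rose and 1 fell, none by more than 0.18. *TRL1*, the ligase that joins the *HAC1* exons, rose by 0.82 ± 0.19, and *PTC2*, a phosphatase gene of Ire1 signalling, fell by 0.45 ± 0.06. As interactions, the differences between WT and the mutants were called for none of the 75 genes in the fit without the block, and with it for 4 in *hcm1-3N* (*DIE2*, *ALG7*, *SSM4* and *SEC23*, all with the lower response in *hcm1-3N*, against 0.641% of all genes) and none in *hcm1-8E*.

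In all, 21 of the 32 genes passed edgeR's test in at least 1 comparison. The other 11 were *LHS1*, *JEM1*, *SIL1*, *ERV2*, *OST3*, *PMT3*, *PMT5*, *PMT6*, *SEC62*, *SEC63* and *IRE1*, and 4 of them, *SIL1*, *PMT5*, *SEC62* and *IRE1*, did not pass it with the block either. DESeq2 called *PMT3* and *SIL1* (adjusted p = 0.0472) for LiCl averaged over strains and *ERV2* between the mutants in control medium.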

How the data were processed

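Polyadenylated RNA of 18 cultures was sequenced by the authors as strand-specific paired-end libraries, aligned to R64-1-1, and fragments on exons with a mapping quality above 20 were counted per gene with featureCounts. The count table was deposited as whole numbers, not normalized. The deposited TPM are counts divided by gene length and scaled per library by the authors, and were used for levels between genes only. The submitters' processing notes also name DESeq2. Library totals were 18816441 to 21851012 counts (median 21695332).

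One model of 6 group means covered the 18 libraries (edgeR 4.0.16, R 4.3.3, TMM, filterByExpr by group, robust quasi-likelihood test), with p-values adjusted by Benjamini-Hochberg over 6239 genes and a threshold of 0.05. CPM use TMM scaling. Standard errors of the log2 fold change were back-calculated as its absolute value divided by the square root of the quasi-likelihood F statistic. Fits were tested on simulated data. Replicates differed by more than counting noise (chi-square per gene 10.6 to 285). The labels call them biological triplicates.

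Same-numbered libraries of different groups deviated together (all 45 correlations of deviations from group means over 0.1, lowest 0.237, median 0.528). Libraries numbered 2 and 3 also did so (0.266 to 0.698, median 0.414, against 0.274 to 0.718 for 2 with 2 and 0.237 to 0.696 for 3 with 3). Replicate 1 ran against both (-0.849 to -0.306), which follows in part from deviations cancelling within each group. Because libraries numbered 2 and 3 deviated together, the numbers mainly set replicate 1 apart. The labels' replicate numbers are the source of this pairing, and no source used here states a shared culture day. The fit with the replicate number as a block was an alternative, with DESeq2 1.42.0, its size factors in edgeR, no expression filter and leaving out each library. Scaling by library totals and leaving out all replicate 1 libraries were added after seeing the data.

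All 32 genes are named. Values per library are given for up to 10 genes with the largest changes per comparison and for *KAR2*, *HAC1* and *IRE1*, and up to 3 genes per other list, largest changes first. *SSM4*, *SEC23*, *DIE2*, *ALG7*, the 7 genes low in WT control medium and the genes named for a block or DESeq2 call were named after their values were seen. Members and lists were chosen with earlier results of these data known. Positions and promoters are from RefSeq's R64. blastn 2.17.0 found no second copy of any member over at least 100 bases at 80% identity. No count column was left out.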

Additional observations from a re-analysis of the deposited data

How the results depend on the processing

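None of the 48 calls of single genes reversed its direction under any of the 792 alternative values, 671 stayed on the same side of the threshold and 121 lost significance, and 28 calls held in every fit without 1 library. With the replicate block, which kept every call made without it, the counts of called members were 11 for LiCl in *hcm1-3N*, 12 for LiCl in *hcm1-8E*, 14 for *hcm1-3N* against WT in control medium, 2 for *hcm1-8E* against WT and 3 for *hcm1-3N* against *hcm1-8E* there, and 2 when these mutants were compared in LiCl. The replicate block added 1, 3 and 0 calls to LiCl averaged, LiCl in WT and *hcm1-3N* against WT in LiCl. DESeq2 called 5 members for LiCl in *hcm1-3N*, 4 and 2 for *hcm1-8E* against WT and *hcm1-3N* against *hcm1-8E* in control medium, 2 for the latter in LiCl, and 3 and 2 for the interactions of *hcm1-3N* and *hcm1-8E*. Over all genes with an adjusted p it called 1180 of 6257, 159 of 5854, 124 of 6526, 361 of 6660, 130 of 3705 and 85 of 3033, in the same order. Without the replicate 1 libraries the counts were 6 for LiCl in *hcm1-3N*, 15 for LiCl in *hcm1-8E*, 4 for *hcm1-3N* against *hcm1-8E* in either medium, 1 for *hcm1-8E* against WT in LiCl and 2 for the interaction of *hcm1-8E*. Of the 6237 genes then tested, 1944, 2952, 698 (control medium), 864 (LiCl), 149 and 367 were called, in the same order. Leaving out 1 library gave 15 to 18 calls for LiCl averaged, 6 to 10 in WT, 1 to 6 in *hcm1-3N*, 4 to 9 in *hcm1-8E*, 3 to 5 for *hcm1-3N* against WT in control medium, 0 to 1 for the same in LiCl, 1 to 2 between the mutants in LiCl, and 0 for the others. The cause of these changes was not tested. Without the expression filter, 6 members were higher and 10 lower on average, and DESeq2's size factors in edgeR gave 9 and 9. Over all genes these fits called 1648 higher and 1649 lower of 6929, and 1715 higher and 1582 lower of 6239. Each member had at least 315 counts in each library.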
